A study of Mus musculus with 6 samples.

Results

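The 10 genes described here encode transcription factors that direct blood progenitors towards B and T lymphocytes: Ikzf1, Ikzf2, Ikzf3, Satb1, Bcl11a, Tcf3, Tcf4, Tcf12, Ebf1 and Pax5. They were taken by gene symbol from a fixed list of names, and all 10 were found, each with 1 feature, among 19938 genes measured under a single symbol. Their RNA was measured in multipotent progenitors on 6 whole-transcript mouse arrays, 3 from Lxn-/- mice and 3 from WT mice. The Lxn-/- mice carry a deletion of exons 2 to 4 of latexin and lack the protein, an inhibitor of carboxypeptidases, while the gene is intact in WT mice. Both groups are C57BL/6 females of 8 to 12 weeks by their labels, with no treatment given. Sorted bone marrow cells lacked lineage markers and carried Sca1, c-Kit and CD34, and Flt2 as the submitters spell it. About 100000 cells from 10 to 20 mice were pooled for each array, so an array reads the mean of a pool. In such bulk RNA, fewer cells of a type and less RNA per cell cannot be told apart. The comparison asks which of these regulators differ in progenitors without latexin.

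Lymphoid fate is set up in multipotent progenitors before any lymphocyte gene is fully on. Ikaros family zinc finger proteins and the chromatin organiser SATB1 act early in this priming, and the E proteins, a class of basic helix-loop-helix factors that bind DNA as dimers at E box motifs, drive it further. EBF1 and PAX5 act later, to specify the B lineage and hold cells in it. Id proteins pair with E proteins and keep them off DNA.

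All values are RMA log2 expression values as the authors deposited them, and changes are Lxn-/- minus WT on that scale, with the standard error (SE) and p from limma, adjusted by Benjamini-Hochberg over the 23410 tested features. Levels are not set against each other between genes, because probes differ in brightness. The sort gate genes Kit, Flt3 and Cd34 read between 11.48 and 13.48 on all 6 arrays, and Ly6a, which encodes Sca1, has no feature of its own symbol. Lxn was 8.03, 8.53 and 8.61 in the Lxn-/- arrays and 8.56, 8.70 and 8.58 in the WT arrays (change -0.22, SE 0.15, limma adjusted p 0.459). No source used here tells which exons its probes cover, so Lxn does not check the labels. Lxn-/- arrays 1 and 3 also go against the label of female donors. The 3 measured Y-linked genes, Eif2s3y, Kdm5d and Uty, read between 7.88 and 9.43 there, against 3.68 to 5.38 in Lxn-/- array 2 and the 3 WT arrays. Lxn-/- arrays 1 and 3 read 6.86 and 5.85 for Xist, against 13.17 in Lxn-/- array 2 and 13.13 to 13.23 in the WT arrays. The changes of the 10 genes, and of the Id, NuRD and lymphoid genes named with them, are therefore also given for arrays 1 and 3 and for array 2 apart. The part of this split in any result was not tested. Changes also depended on brightness over the whole array. The median change ran from -0.147 in the fourth decile of mean level to 0.090 in the eighth, and it was -0.038 over all tested features.

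None of the 10 genes passed an adjusted p of 0.05, a threshold that 0% of all tested features passed. Their adjusted p values in limma ran from 0.340 to 0.838. At an unadjusted p under 0.05 there were 2 of the 10, Satb1 and Tcf4, both with the higher mean in Lxn-/-, against 14.3% of all features in either direction and 5.06% with the higher mean in Lxn-/- (9.23% with the lower). That count was 0 of the 10 without Lxn-/- array 3, without WT array 3, or with a second quantile normalization. Over all 23410 features the count fell as well in these settings, from 3346 to 1628, 2448 and 1812, in that order. The groups did not overlap in 3 of the 10, Satb1 and Tcf4 on the higher side and Ikzf3 on the lower, against 21.6% of all features (8.54% higher and 13.0% lower). Neither share of members is read as standing apart, since 1 gene more or fewer moves it by 10 percentage points. The mean was higher in Lxn-/- for 5 members and lower for 5, at a median change of 0.01, beside 42.2% of all features with a higher and 57.8% with a lower mean. The median over the members was -0.01 with arrays 1 and 3 alone and 0.04 with array 2 alone. In those fits 0 of the 10 passed as well, against 0.619% of all features with arrays 1 and 3 and 0.0128% with array 2. At an unadjusted p under 0.05, arrays 1 and 3 gave 1 of the 10, Satb1, against 11.3% of all features, and array 2 gave 0, against 12.8%.

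**Figure D1:**
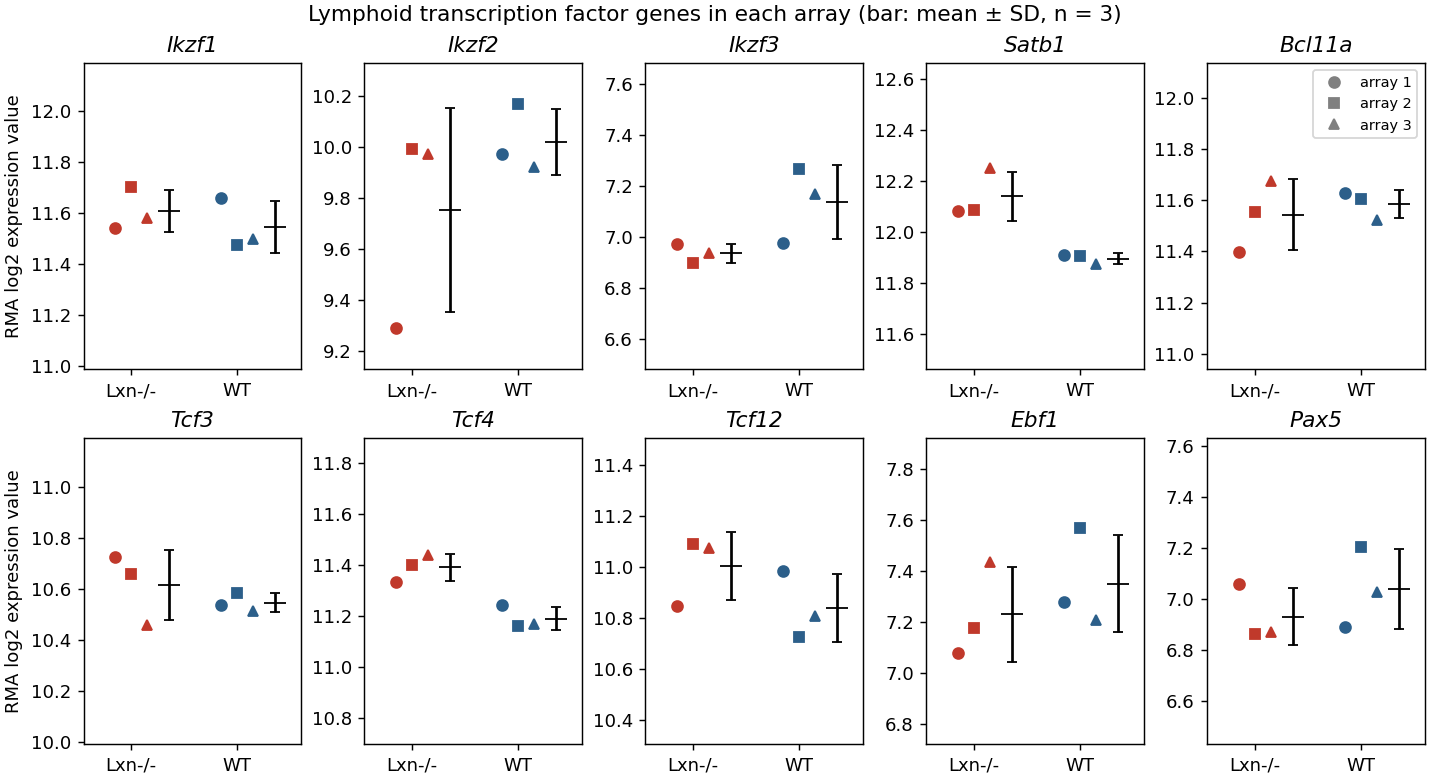
RMA log2 expression value (y axis, each panel spanning the same width of log2 units) of the 10 genes in the 3 Lxn-/- arrays (red, left) and the 3 WT arrays (blue, right), with marker shapes for array numbers and black bars for mean ± SD (n = 3). The groups are separate for Satb1 and Tcf4, nearly touch for Ikzf3 (6.97 in the highest Lxn-/- array and 6.98 in the lowest WT array), and overlap for the other genes, and Ikzf2 is low in Lxn-/- array 1 only (9.29).

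Satb1 had the smallest p of the 10. SATB1 organises chromatin loops and favours lymphoid over myeloid output of stem and progenitor cells. Its gene lies on chromosome 17 and read 12.08, 12.09 and 12.25 in the Lxn-/- arrays, against 11.91, 11.91 and 11.87 in the WT arrays. Every Lxn-/- value was above every WT value, and the WT arrays lay within 0.037 of each other. The means were 12.14 ± 0.10 in Lxn-/- and 11.90 ± 0.02 in WT (SD, n = 3 each). The change of 0.24 (SE 0.09, 95% interval 0.05 to 0.44, unadjusted p 0.0212) is a 1.18-fold higher mean and did not pass (limma adjusted p 0.340). It was 0.27 with arrays 1 and 3 and 0.19 with array 2, where the shared sign follows from the groups not overlapping. After quantile normalization it was 0.15 (unadjusted p 0.108). Features in the same decile of mean level had a median change of 0.072.

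Bcl11a encodes a zinc finger repressor that B cell and early lymphoid development require. It lies on chromosome 11, as do Ikzf1, Ikzf3 and Ebf1. Bcl11a read 11.40, 11.56 and 11.68 in the Lxn-/- arrays, against 11.63, 11.60 and 11.52 in the WT arrays. The Lxn-/- values lay on both sides of WT, with array 1 lowest and array 3 highest of all 6. The change of -0.04 (SE 0.10, adjusted p 0.838) had a 95% interval of -0.26 to 0.18, and it was -0.05 with arrays 1 and 3 and -0.03 with array 2. Its sign turned to 0.02 when each array was centred on its median, and it was -0.14 after quantile normalization.

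The Ikaros family members did not move as 1 group. Ikzf1 encodes Ikaros, whose loss in mice removes B cells and depletes early lymphoid priming. It read 11.54, 11.70 and 11.58 in the Lxn-/- arrays, against 11.66, 11.47 and 11.50 in the WT arrays, which overlap widely. Its change of 0.06 (SE 0.09, adjusted p 0.730) had a 95% interval of -0.15 to 0.28 and turned to -0.02 after the arrays were quantile-normalized again. It was 0.02 with arrays 1 and 3 and 0.16 with array 2.

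Ikzf2 encodes Helios, known from regulatory T cells and also present in stem and progenitor cells. It had the widest range of the 10 over the 6 arrays, 0.88 log2 units. It read 9.29, 9.99 and 9.97 in the Lxn-/- arrays, against 9.97, 10.17 and 9.92 in the WT arrays. The low mean in Lxn-/- (9.75 ± 0.40, against 10.02 ± 0.13 in WT, SD, n = 3 each) came from array 1, while arrays 2 and 3 lay within the WT range. The change was -0.27 (SE 0.18, adjusted p 0.458), and without Lxn-/- array 1 it was -0.04 (adjusted p 0.825). It was -0.39 with arrays 1 and 3, -0.03 with array 2 and -0.35 after quantile normalization. Kit, the stem cell factor receptor gene of the sort gate, was likewise low in array 1, at 11.48, 12.15 and 12.10 in the Lxn-/- arrays, against 12.15, 12.19 and 12.05 in the WT arrays. Whether the composition of that pool has a part in the Ikzf2 value was not tested. Among 9748 other genes above the median level, those with patterns nearest to Ikzf2 were Plcb2, a phospholipase C gene, and Pygm, a glycogen phosphorylase gene. Their centred values differed from it by a root mean square of 0.053 each over the 6 arrays.

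Ikzf3 encodes Aiolos, which acts in B cells from the pre-B stage onward. It read 6.97, 6.90 and 6.94 in the Lxn-/- arrays, against 6.98, 7.26 and 7.17 in the WT arrays. The groups did not overlap, by a gap of less than 0.01 between Lxn-/- array 1 and WT array 1. The change of -0.20 (SE 0.10, unadjusted p 0.0713, adjusted p 0.365) was -0.18 with arrays 1 and 3 and -0.24 with array 2. Features in the same decile of mean level had a median change of -0.147, and after quantile normalization the change of Ikzf3 was -0.08.

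The 3 E protein genes each had the higher mean in Lxn-/-, by 0.07 to 0.20. Median changes in their deciles of mean level were also above 0, at 0.086 for Tcf3 and 0.072 for Tcf4 and Tcf12. The change of Tcf3 lay below that median. Tcf4, which encodes E2-2, the E protein needed for plasmacytoid dendritic cells, read 11.34, 11.40 and 11.44 in the Lxn-/- arrays, against 11.24, 11.16 and 11.17 in the WT arrays. All 3 Lxn-/- values were above all 3 WT values, at 11.39 ± 0.05 in Lxn-/- and 11.19 ± 0.04 in WT (SD, n = 3 each). The change of 0.20 (SE 0.08, 95% interval 0.01 to 0.39, unadjusted p 0.0395) is a 1.15-fold higher mean and did not pass (limma adjusted p 0.342). It was 0.20 with arrays 1 and 3 and 0.21 with array 2, and 0.11 after quantile normalization (unadjusted p 0.153). With the replicate number as a block its unadjusted p was 0.0761. Of all pairs among the 10 genes, Satb1 and Tcf4 had the nearest patterns over the 6 arrays, with a root mean square difference of 0.048 between centred values.

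Tcf12, which encodes HEB, an E protein of early T cell development, read 10.85, 11.09 and 11.07 in the Lxn-/- arrays, against 10.98, 10.72 and 10.81 in the WT arrays. Lxn-/- arrays 2 and 3 lay above all WT values and array 1 among them. Its change was 0.16 (SE 0.11, adjusted p 0.449), at 0.12 with arrays 1 and 3 and 0.25 with array 2. It was 0.08 after quantile normalization, and with 1 array left out it ran from 0.11 without WT array 2 to 0.24 without Lxn-/- array 1 (adjusted p 0.204). Tcf3, which encodes the E2A proteins E12 and E47, required for B cell specification, read 10.73, 10.66 and 10.46 in the Lxn-/- arrays, against 10.54, 10.59 and 10.51 in the WT arrays. The Lxn-/- values lay on both sides of WT. The change of 0.07 (SE 0.10, adjusted p 0.713) had a 95% interval of -0.15 to 0.29 and turned to -0.02 after quantile normalization. It was 0.05 with arrays 1 and 3 and 0.11 with array 2.

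**Figure D2:**
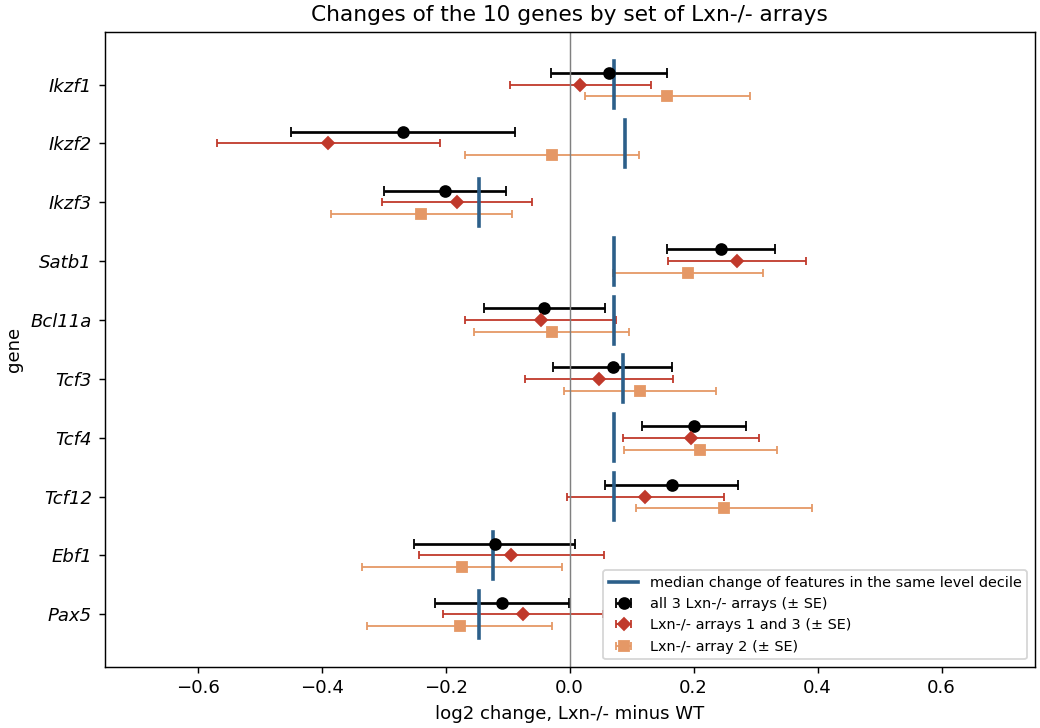
Log2 change with its SE (x axis) of each of the 10 genes (y axis) for all 3 Lxn-/- arrays (black circles), arrays 1 and 3 (red diamonds) and array 2 (orange squares) against the 3 WT arrays. Blue bars mark the median change of features in the same decile of mean level. The 3 estimates of Satb1, of Tcf4 and of Tcf12 lie right of that bar, whereas those of Ebf1 and Pax5 lie around it.

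Ebf1 and Pax5, the genes of the B lineage specification and commitment factors, had lower means in Lxn-/- that did not pass. Ebf1 read 7.08, 7.18 and 7.44 in the Lxn-/- arrays, against 7.28, 7.57 and 7.21 in the WT arrays. Its groups overlapped, and the change of -0.12 (SE 0.13, adjusted p 0.626) lay beside the median of its decile of mean level, -0.123. Pax5 read 7.06, 6.86 and 6.87 in the Lxn-/- arrays, against 6.89, 7.20 and 7.03 in the WT arrays. Its change of -0.11 (SE 0.11, adjusted p 0.602) lay beside a median of -0.147 for its decile and turned to 0.02 after quantile normalization. WT array 2 held the highest value of all 6 for Ebf1, Pax5, Ikzf3 and Ikzf2. Without it the change of Ebf1 was -0.01 and that of Pax5 -0.03, and after quantile normalization that of Ebf1 was -0.02. Ebf1 was at -0.09 with arrays 1 and 3 and -0.17 with array 2, and Pax5 at -0.07 and -0.18.

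The Id genes, whose products inhibit E proteins, had changes between -0.17 and 0.55, beside 0.07 to 0.20 for the E protein genes. Id2, which also marks innate lymphoid and dendritic cell precursors, read 9.81, 9.42 and 9.66 in the Lxn-/- arrays, against 9.04, 9.19 and 9.18 in the WT arrays. All Lxn-/- values were above all WT values. The change of 0.49 (SE 0.11, unadjusted p 0.00203) is a 1.41-fold higher mean and did not pass (limma adjusted p 0.340). It was 0.60 with arrays 1 and 3 (limma adjusted p 0.0552) and 0.28 with array 2. The median change in the decile of Id2 was 0.090.

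Id3 and Id1 were graded within the Lxn-/- arrays, with array 1 highest, array 3 between and array 2 lowest. Id3 read 8.35, 6.93 and 7.59 in Lxn-/- arrays 1, 2 and 3, against 7.08, 7.12 and 7.00 in the WT arrays. Id1 read 8.73, 7.65 and 8.15 in the Lxn-/- arrays, against 7.80, 7.94 and 7.70 in the WT arrays. For both genes the 2 arrays with Y-linked signal were above every WT array, and array 2 was below every one. Their changes were 0.55 (SE 0.29) for Id3 and 0.36 (SE 0.23) for Id1 over all arrays, beside decile medians of -0.123 and -0.011. With arrays 1 and 3 they were 0.90 (adjusted p 0.0795) for Id3 and 0.63 (adjusted p 0.211) for Id1, and with array 2 alone -0.14 for Id3 and -0.16 for Id1. Id4 read 7.05, 7.09 and 6.95 in the Lxn-/- arrays, against 7.05, 7.36 and 7.22 in the WT arrays. Its change was -0.17 (SE 0.10), at -0.21 with arrays 1 and 3 and -0.11 with array 2. Features in the decile of Id4 had a median change of -0.147. None of the 4 Id genes passed in limma over all features, and the difference between Id and E protein genes was not tested.

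**Figure D3:**
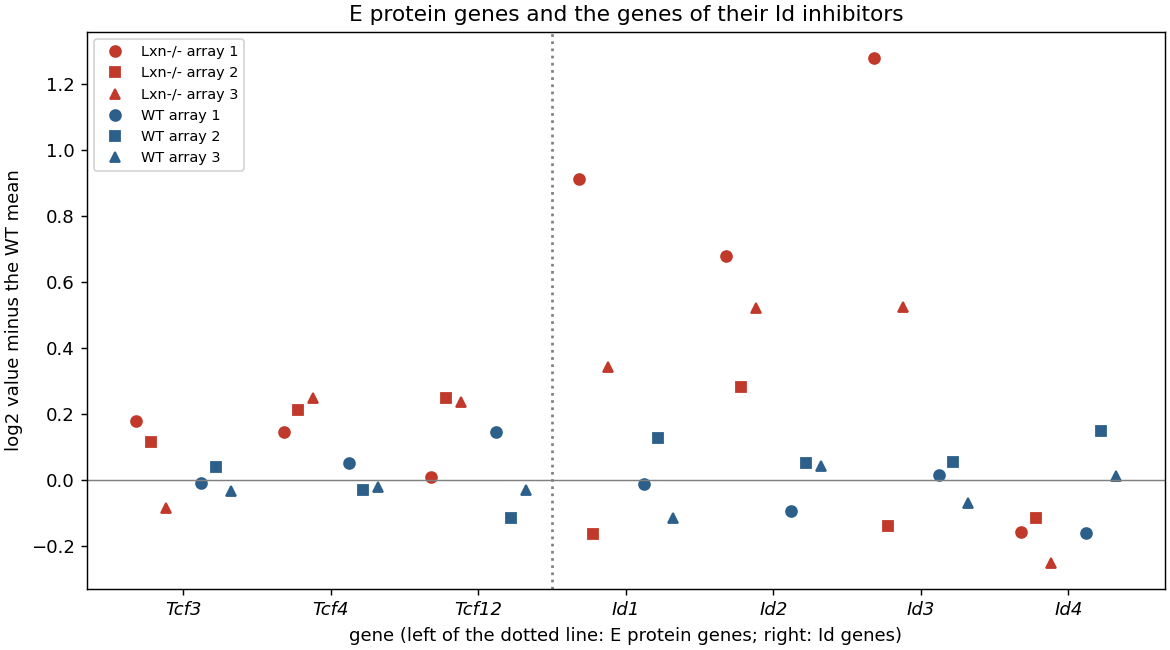
Log2 value minus the WT mean (y axis) of 3 E protein genes and 4 Id genes (x axis) in each Lxn-/- array (red) and each WT array (blue). The E protein genes stay within 0.25 of the WT mean, Id2 is above it in all Lxn-/- arrays, and Id1 and Id3 are above it in Lxn-/- arrays 1 and 3 and below it in array 2.

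E proteins bind the E box hexamers CAGCTG and CACCTG, and these letters were searched on both strands in the 250 bases before each RefSeq gene start (build GRCm38.p6). No match overlapped another in the windows shown. Of the 10 genes, 7 have at least 1 start in the promoter table, 15 starts in all. Either hexamer was found before 2 of these starts, 1 of 5 of Satb1 and 1 of 3 of Tcf12, and before 1 of the 3 starts of Id genes, that of Id2 and not those of Id3 and Id4. Of all 32851 starts, 27.7% hold either hexamer, 13% CAGCTG and 17.2% CACCTG. The matches describe letters only, since binding was not measured. The windows shown are those that hold a hexamer. Capitals mark the hexamers.
Satb1, chr17:51826589-51826838, minus strand: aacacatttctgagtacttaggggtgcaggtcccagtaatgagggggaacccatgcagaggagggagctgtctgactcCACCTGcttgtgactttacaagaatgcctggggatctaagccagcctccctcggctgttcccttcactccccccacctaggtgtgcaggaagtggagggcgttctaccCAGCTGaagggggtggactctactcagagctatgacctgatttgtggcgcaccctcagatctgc
Tcf12, chr9:72111820-72112069, minus strand: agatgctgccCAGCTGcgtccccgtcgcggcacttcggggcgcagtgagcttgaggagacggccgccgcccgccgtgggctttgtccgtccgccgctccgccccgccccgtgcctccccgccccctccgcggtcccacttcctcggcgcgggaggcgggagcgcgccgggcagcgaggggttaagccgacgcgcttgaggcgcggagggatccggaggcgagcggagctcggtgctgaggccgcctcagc
Id2, chr12:25096093-25096342, minus strand: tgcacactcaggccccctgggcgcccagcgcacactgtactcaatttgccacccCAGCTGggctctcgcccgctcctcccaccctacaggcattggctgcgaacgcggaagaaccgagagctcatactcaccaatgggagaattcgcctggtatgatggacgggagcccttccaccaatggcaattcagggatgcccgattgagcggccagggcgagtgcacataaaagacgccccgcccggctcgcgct
In the Satb1 window CACCTG begins 172 bases and CAGCTG 64 bases before the start. CAGCTG begins 240 bases before the Tcf12 start and 196 bases before the Id2 start.

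The Ikaros relatives Ikzf4 and Ikzf5 and the subunits of the NuRD chromatin complex, which Ikaros recruits, were all measured (15 of 15 genes). None passed, and 13 had the higher mean in Lxn-/-, against 42.2% of all features (9 of 15 with arrays 1 and 3 alone and 13 with array 2 alone). Of the 15 genes, 14 lie in the ninth and the tenth decile of mean level, where the median changes were 0.086 and 0.072, above the median of 0.04 over the list. Ikzf4, which encodes Eos, read 7.05, 6.85 and 6.84 in the Lxn-/- arrays, against 7.07, 7.27 and 7.09 in the WT arrays. These groups did not overlap (change -0.23, SE 0.10, adjusted p 0.344), and features of its brightness had a median change of -0.147. It was at -0.20 with arrays 1 and 3 and -0.29 with array 2. The deacetylase gene Hdac2 had a change of 0.29 (SE 0.14) and Mbd3, a NuRD core subunit gene, one of 0.13 (SE 0.08), also without overlap. Hdac2 was at 0.34 with arrays 1 and 3 and 0.21 with array 2, and Mbd3 at 0.14 and 0.12.

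Other transcription factor genes of lymphoid and dendritic fate were measured in 16 of 18 cases, with 0 passing, 8 higher and 8 lower means and a median change of -0.04. With arrays 1 and 3 alone 7 means were higher, and with array 2 alone 9. Irf8, a factor of dendritic cell, monocyte and B cell development, had the smallest p among them. It read 11.50, 11.45 and 11.42 in the Lxn-/- arrays, against 11.26, 10.97 and 10.88 in the WT arrays, with no overlap. Its change was 0.42 (SE 0.11, limma adjusted p 0.340), at 0.43 with arrays 1 and 3 and 0.41 with array 2. The median change in the decile of Irf8 was 0.072. Pou2af1, the B cell coactivator gene, read 7.68, 7.55 and 7.40 in the Lxn-/- arrays, against 7.83, 8.27 and 7.64 in the WT arrays. Its groups overlapped (change -0.37, SE 0.16, adjusted p 0.344), and the change was -0.37 with arrays 1 and 3 and -0.36 with array 2. Features in the decile of Pou2af1 had a median change of -0.123. Irf4, of late B cell stages, had a change of -0.34 (SE 0.16, adjusted p 0.357), at -0.41 with arrays 1 and 3 and -0.19 with array 2. Features in the decile of Irf4 had a median change of -0.147.

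Genes under the control of E2A, EBF1 and PAX5 in B lineage cells were mixed. Of 14 measured from 15, none passed, 6 had a higher and 8 a lower mean in Lxn-/-, and the median change was -0.07. The higher means numbered 5 with arrays 1 and 3 alone and 7 with array 2 alone. Igll1, a surrogate light chain gene, read 7.52, 7.52 and 7.63 in the Lxn-/- arrays, against 7.67, 8.02 and 7.82 in the WT arrays, with no overlap (change -0.28, SE 0.11, adjusted p 0.340). Its change was -0.26 with arrays 1 and 3 and -0.32 with array 2, beside a median of -0.123 for its decile. Fcrla, an Fc receptor-like gene of B cells, had a change of -0.32 (SE 0.13), also without overlap. The change of Fcrla was -0.32 with arrays 1 and 3 and -0.31 with array 2, beside a median of -0.143 for its decile. Blnk, the adaptor gene of pre-B cell signalling, had the higher mean in Lxn-/-, at 8.44, 9.06 and 8.82 in the Lxn-/- arrays, against 8.69, 7.98 and 8.26 in the WT arrays. These groups overlapped (change 0.46, SE 0.20, limma adjusted p 0.344), and the change was 0.32 with arrays 1 and 3 and 0.75 with array 2. The decile of Blnk had a median change of 0.068.

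Lymphoid priming genes were measured in 10 of 13 cases, none passing, with 4 higher and 6 lower means, and with 5 higher means in either set of Lxn-/- arrays alone. Dntt, the terminal transferase gene of early lymphoid progenitors, read 12.29, 12.49 and 12.31 in the Lxn-/- arrays, against 12.13, 12.00 and 12.34 in the WT arrays. Its groups overlapped (change 0.20, SE 0.11, limma adjusted p 0.396), and the change was 0.14 with arrays 1 and 3 and 0.33 with array 2. The decile of Dntt had a median change of 0.072. Ltb, the lymphotoxin beta gene, had a change of -0.52 (SE 0.26) and Ccr9, a chemokine receptor gene of thymus-seeding progenitors, one of -0.39 (SE 0.19), both with overlap. Ltb was at -0.67 with arrays 1 and 3 and -0.23 with array 2, and Ccr9 at -0.26 and -0.67.

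Markers of mature lymphoid cells that the sort should leave out gave these values. Summed log2 values over 7 measured B cell markers ran from 51.5 to 51.6 in the Lxn-/- arrays and from 51.4 to 53.8 in the WT arrays, where WT array 2 was highest. WT array 2 was also the array with the highest Ebf1, Pax5 and Ikzf3. The median of all tested features was highest there too, at 7.84, against 7.73 to 7.79 in the other 5 arrays. The part of B cells or of brightness in those values was not tested. Over 7 T cell markers the sums were 52.5, 50.1 and 50.7 in Lxn-/- arrays 1, 2 and 3, and 50.2 to 51.5 in WT. With arrays 1 and 3, 4 of the 7 had the higher mean in Lxn-/-, and with array 2, 2 did. Cd28 was at 0.75 with arrays 1 and 3 and passed (limma adjusted p 0.0317), as did 0.619% of all features. The part of T cells in array 1 was not tested. Over 6 natural killer cell markers the sums ran from 41.4 to 41.9 in Lxn-/- and from 41.5 to 42.1 in WT. Over 5 of 6 plasmacytoid dendritic cell markers they were 43.0, 41.4 and 42.4 in Lxn-/- arrays 1, 2 and 3, and 41.6 to 42.0 in WT. The last list summed higher in the arrays with Y-linked signal than in the other 4. Its members had changes of 0.48 (Cox6a2), 0.23 (Bst2), -0.02 (Siglech), -0.03 (Ly6d) and -0.16 (Pacsin1). With arrays 1 and 3 Cox6a2 was at 0.71 and passed (limma adjusted p 0.0158) and Bst2 was at 0.33, and with array 2 they were at 0.02 and 0.03. The part of these cells in the Tcf4 values was not tested. Over 6 neutrophil markers the sums ran from 62.5 to 64.6 in Lxn-/- and from 60.6 to 64.3 in WT, and over 3 of 8 erythroid markers from 22.6 to 22.9 in Lxn-/- and from 22.8 to 24.2 in WT. RMA values have no true zero, so no marker can be read as absent.

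For Satb1 the genes with the nearest patterns over the 6 arrays were Prpf3, a splicing factor gene, and Krtcap2, an oligosaccharyltransferase subunit gene (root mean square differences of 0.027 each). Krtcap2 had a change of 0.25 and Prpf3 of 0.21. For Ebf1, second in range among the 10 genes at 0.49, they were Fam160a2 and Etv3, an ETS family repressor gene (0.038 and 0.043). Only genes above the median level were searched, while Ebf1 lies below it, at percentile 42.1, so genes of its own brightness were left out. Fam160a2 had a change of -0.08 and Etv3 of -0.11. These likenesses describe 6 arrays only.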

How the data were processed

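Labelled RNA (from 100 ng) of the sorted progenitors was read on Affymetrix MoGene 1.0 ST arrays. The authors deposited 1 table of log2 values for 35557 features, made with RMA according to the series text; Partek 6.0 stands in the submitters' processing notes. That the scale is log2 was read off the values. No source used here states RMA's settings, the genome build or scan dates. RMA aims to bring arrays to 1 distribution, so total RNA per cell cannot be read, and 6 arrays limit the precision. Over the tested features the array medians still ran from 7.73 to 7.84. A second quantile normalization, run on the 23410 tested features and not on all 35557, moved the change of every member. It took the features at an unadjusted limma p under 0.05 from 3346 to 1812.

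Features were named by the platform's annotation, updated by Entrez identifier in the RefSeq table of GRCm38.p6 (21789 with 1 symbol, of which 21698 matched, 1621 with several, 12147 with none). The 23410 with a symbol were fitted with limma 3.58.1 (R 4.3.3, two-sided, Benjamini-Hochberg, threshold 0.05), tested on simulated data first. Of several features of a gene, the one with the highest mean is given. Groups come from the titles. P-values measure the spread between pools.

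The 10 genes and the lists were chosen with earlier results of these data known. The text names the 10 genes, Lxn, the sort gate and sex-linked genes, up to 3 genes per list by moderated statistic, and the 2 nearest patterns of the 3 genes with the widest range. Id1, Ikzf5, Siglech and Ly6d were named after their values were seen. Promoter sequences are RefSeq's, and plots used matplotlib 3.10.9 (Python 3.11.15). Alternatives were a replicate block, left-out arrays, quantile normalization, median centring, a level filter, other eBayes settings, array weights, all rows, and averaged features.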

Additional observations from a re-analysis of the deposited data

How the results depend on the processing

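Of 147 values of single members under 15 alternatives, 141 kept their sign, none passed the adjusted threshold, and 6 turned sign. The 6 belong to Ikzf1, Tcf3, Pax5 and Bcl11a, whose main changes ran from -0.11 (Pax5) to 0.07 (Tcf3). The replicate block, the level filter, other eBayes settings, all rows and averaged features leave each change as it is. No sign could turn under those, so the 141 include values that test nothing about sign. After quantile normalization Ikzf1 was at -0.022, Tcf3 at -0.023 and Pax5 at 0.017. Bcl11a was at -0.107 to 0.031 with 1 array left out (0.031 without Lxn-/- array 1), 0.016 with arrays centred on their median and 0.012 with array weights. The cause was not tested. Satb1, Tcf4 and Ikzf3 kept their sign under each alternative in which they were tested. Leaving out or weighting arrays could not turn it, since their groups do not overlap. Only quantile normalization and median centring could have turned it. Under these, in that order, Satb1 was at 0.15 and 0.30, Tcf4 at 0.11 and 0.26, and Ikzf3 at -0.08 and -0.14. Over all features the count passing was 1 with the replicate block, 0 to 145 with 1 array left out (145 without Lxn-/- array 2) and 3 with Lxn-/- array 2 alone, whose spread is then assumed to be that of WT. The members at an unadjusted p under 0.05 numbered 1 with the replicate block, 0 after quantile normalization and 0 to 3 with 1 array left out. They numbered 0 without Lxn-/- array 3 or WT array 3, 1 without Lxn-/- array 2 or WT array 2, and 3 without Lxn-/- array 1. Over all features this count moved too. It was 3346 in the main fit, 3319 with the block and 1812 after quantile normalization. With 1 array left out it ran from 1628 without Lxn-/- array 3 to 5541 without Lxn-/- array 1. Members without overlap numbered 3 to 5 with 1 array left out and 8 with Lxn-/- array 2 alone, where fewer arrays make overlap rarer. The share of all features without overlap was not counted for these sets of arrays, so nothing is read from these counts. The members' median was -0.016 to 0.023 with 1 array left out and -0.021 after quantile normalization. Of the genes in the other lists, 0 to 6 passed with 1 array left out. The 6, without Lxn-/- array 2, were Xist, Eif2s3y, Kdm5d, Uty, Cd28 and Cox6a2. In that fit 0.619% of all 23410 features passed. The block rests on shared numbers only: deviations of same-numbered arrays from their group means correlated at 0.076, -0.008 and -0.006 across features. With the block Satb1 had an unadjusted p of 0.0411 and Tcf4 one of 0.0761. Of the 3 Lxn-/- arrays, 1 correlated best with the WT array of its own number. Each member has 1 feature, so averaging features changed no member's value.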
